A study of Triticum aestivum with 16 samples.

Results

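Bread wheat is a hexaploid with 3 subgenomes, A, B and D, and each of its chromosome groups holds a chromosome from each of them. The genes described here are all those whose identifier places them on chromosome 1B. They number 4714 of the 107891 wheat gene identifiers measured, and their partners are the 4344 genes of chromosome 1A and the 4484 of chromosome 1D. By the convention of this annotation, identifiers number the genes along a chromosome, beginning at the end of the short arm. That orientation is general knowledge, and it was not checked here which identifiers lie on which arm or where the splits described below stand relative to the centromere. The 1B genes were put in identifier order, which runs from TraesCS1B02G000100 to TraesCS1B02G481600, and divided into bins of 100 consecutive identifiers. This gave 48 bins, the last with 14 genes, and each full bin was set beside the bin of the same number on 1A and 1D. The same bin number on 3 chromosomes is a matched distance in genes and not a set of matched copies.

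The short arm of 1B has a particular place in wheat breeding. In the 1BL/1RS translocation the short arm of rye chromosome 1 stands in place of the short arm of wheat 1B, while the long arm remains that of wheat. The rye arm was spread through many cultivars because it carries genes for resistance to rusts and powdery mildew, and AK58 has been described as one of its carriers. The labels name no translocation in either cultivar. The question was whether the genes at the short-arm end of 1B gave reads, as those of 1A and 1D did. Expression values cannot tell a gene that is missing from one that is present and not transcribed, or from one whose reads aligned to another copy.

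The 16 RNA-seq libraries formed 8 groups of 2. In ZM7698 (Zhengmai7698) they came from shoot apices and from axillary buds of 1.0 to 2.0 cm, each from the hexa-mutant M6, with all A, B and D copies of TaSPL7 and TaSPL15 mutated, and from its wild type (WT), all at 2 weeks. In AK58 (AiKang58), with no mutation named, the groups were leaf and root at 2 weeks, buds of the same length at 6 weeks after 30 days at 4 °C, and apices at 2 weeks, so that age and cold differ along with tissue between AK58 bud and apex. TaSPL7 and TaSPL15 encode SPL transcription factors, a plant family with roles in branching and in the change to flowering. The labels do not say whether the libraries of a group came from separate plants, so p-values measure the spread between these libraries.

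AK58 values are whole reads divided by 1 factor per library and go by the name of normalised reads below. No correction for gene length was made, so levels of different genes or bins in AK58 also carry their lengths. ZM7698 values are TPM, which do allow for gene length, and their sequencing depth is unknown. The AK58 libraries held 51497044 to 79585209 recovered reads. Between 67174 and 75358 identifiers were above 0 in an AK58 library, and between 70100 and 73715 in a ZM7698 library. The pair of root libraries stood apart from each other, with a Pearson correlation of log2 values across genes of 0.884, where the other 7 pairs reached 0.974 to 0.992. The AK58 results on detection along 1B are therefore also given for the 6 libraries without root. The identifiers carry no gene names, so neither the mutated genes nor tissue markers were checked, and no role is given to any gene below.

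A gene was counted as detected when it reached 10 normalised reads in at least 2 AK58 libraries, or 1 TPM in at least 2 ZM7698 libraries. In AK58, 2723 genes of 1B were detected, or 57.8%, against 66.3% on 1A and 67.3% on 1D, where 63.8% of all wheat genes were detected. In ZM7698, 1817 genes of 1B were detected, or 38.5%, against 49.7% on 1A and 50.3% on 1D, where the share of all wheat genes was 46.1%. The shortfall of 1B lay at the start of the identifier order. Beyond identifier 1494, 1B had 68.4% detected in AK58, against 68.6% on 1A and 68.8% on 1D. In ZM7698 the same stretch had 49.97% detected on 1B, against 52.1% on 1A and 51.5% on 1D. The AK58 libraries other than root had 53.7% of 1B detected, against 61.8% on 1A and 62.6% on 1D, and beyond identifier 1494 it had 63.4%, against 63.96% and 64.3%.

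The first 1000 identifiers of 1B, taken as the short-arm end, had 28.1% of their genes detected in AK58, against 57.3% on 1A and 58.1% on 1D. In ZM7698 the share was 11.6% on 1B, against 40.5% on 1A and 39.5% on 1D. Genes listed at 0 in all 8 libraries of a set made up the larger part of this end of 1B. They were 51.7% in AK58, against 25.2% on 1A and 22.5% on 1D, and 53.9% in ZM7698, against 29.8% on 1A and 30.1% on 1D. Over all wheat genes, 78.8% were above 0 in at least 1 AK58 library and 75.1% in at least 1 ZM7698 library.

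Each library showed the gap. In AK58 a library detected 22.3% ± 1.57 of the first 1000 genes of 1B (mean ± SD, n = 8), 45.9% ± 2.12 of those of 1A and 46.7% ± 2.70 of those of 1D. The difference between 1B and the mean of 1A and 1D was -24.0 ± 1.88 percentage points and lay between -26.75 in the first root library and -21.85 in the first bud library. In ZM7698 a library detected 10.1% ± 0.591 on 1B, 37.05% ± 1.099 on 1A and 35.5% ± 1.16 on 1D, with a difference of -26.2 ± 0.789 points and a range of -27.35 to -25.35. The share on 1B was lower in 8 of 8 libraries of each cultivar, and no library of 1B overlapped any library of 1A or 1D. An exact two-sided sign-flip permutation test over libraries gave p = 0.00781 in each cultivar, the smallest that 8 libraries can give, and an adjusted p of 0.00781 over 4 tests. Without both root libraries the AK58 difference was -23.1 points. Libraries of a cultivar share its genome, so the test covers the spread between libraries and not that between cultivars. It also treats the 8 libraries as separate units, though they form groups of 2. A difference of the same sign in all 8 libraries always gives p = 0.00781 in this permutation test, whatever sets of genes are compared.

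The long-arm end gave a smaller gap. Of the last 1000 identifiers, an AK58 library detected 45.3% ± 2.999 on 1B, 49.9% ± 3.82 on 1A and 51.9% ± 4.25 on 1D (n = 8), a difference of -5.6 ± 1.32 points. A ZM7698 library detected 34.4% ± 0.970 on 1B, 41.7% ± 1.12 on 1A and 41.4% ± 1.47 on 1D, a difference of -7.13 ± 0.504 points. These differences were also negative in 8 of 8 libraries, with an exact permutation p of 0.00781 in each cultivar. Their direction depended on the chromosomes that 1B was set against. Compared with the last 1000 genes of the other 6 B chromosomes, those of 1B were detected more often, by 5.05 points in AK58 and 4.33 points in ZM7698. The exact permutation p was again 0.00781 in each cultivar, though the direction was the opposite one. It shows a difference that was steady over libraries, and does not set 1B apart from other sets of genes. At the short-arm end the same comparison kept its sign, at -22.3 points in AK58 and -24.1 points in ZM7698.

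**Figure D1:**
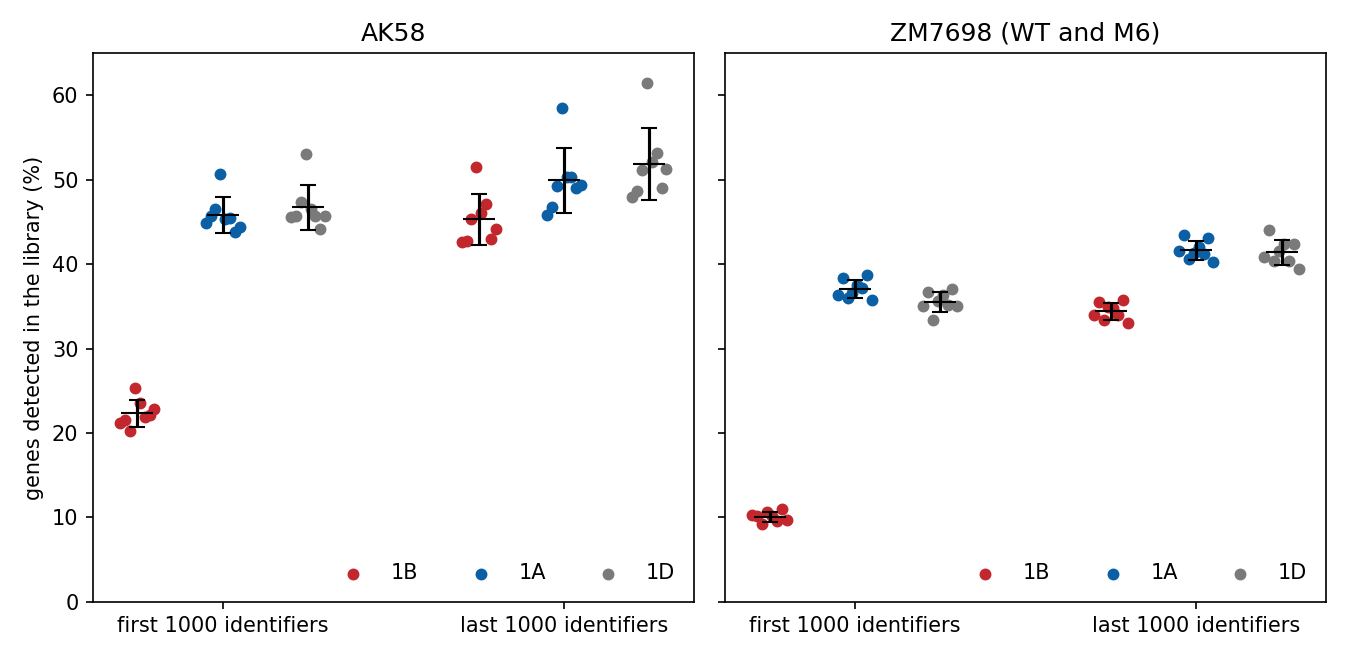
Share of genes detected in each library (percent) among the first and the last 1000 identifiers of 1B, 1A and 1D, for the 8 AK58 libraries (left) and the 8 ZM7698 libraries (right). Each point is a library, and black bars give the mean ± SD. At the first end the 1B libraries average 22.3% in AK58 and 10.1% in ZM7698, below every library of 1A and 1D, while at the last end the gap is -5.6 and -7.13 points.

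The start of 1B was also the least detected start of any chromosome. Among the other 20 chromosomes, the share detected in the first 1000 identifiers in AK58 was lowest on 3B, with 43.9%, and next on 2B, with 44.5%, and the median was 57.3%. In ZM7698 the lowest were 2B with 25.7% and 3B with 27.8%, and the median was 36.5%. The values of 1B, 28.1% in AK58 and 11.6% in ZM7698, lay under all of them, and the nearest in that order were B chromosomes. The value of 1B in AK58 was 26.6% without both root libraries, where the lowest of the other 20 had 37.7%.

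**Figure D2:**
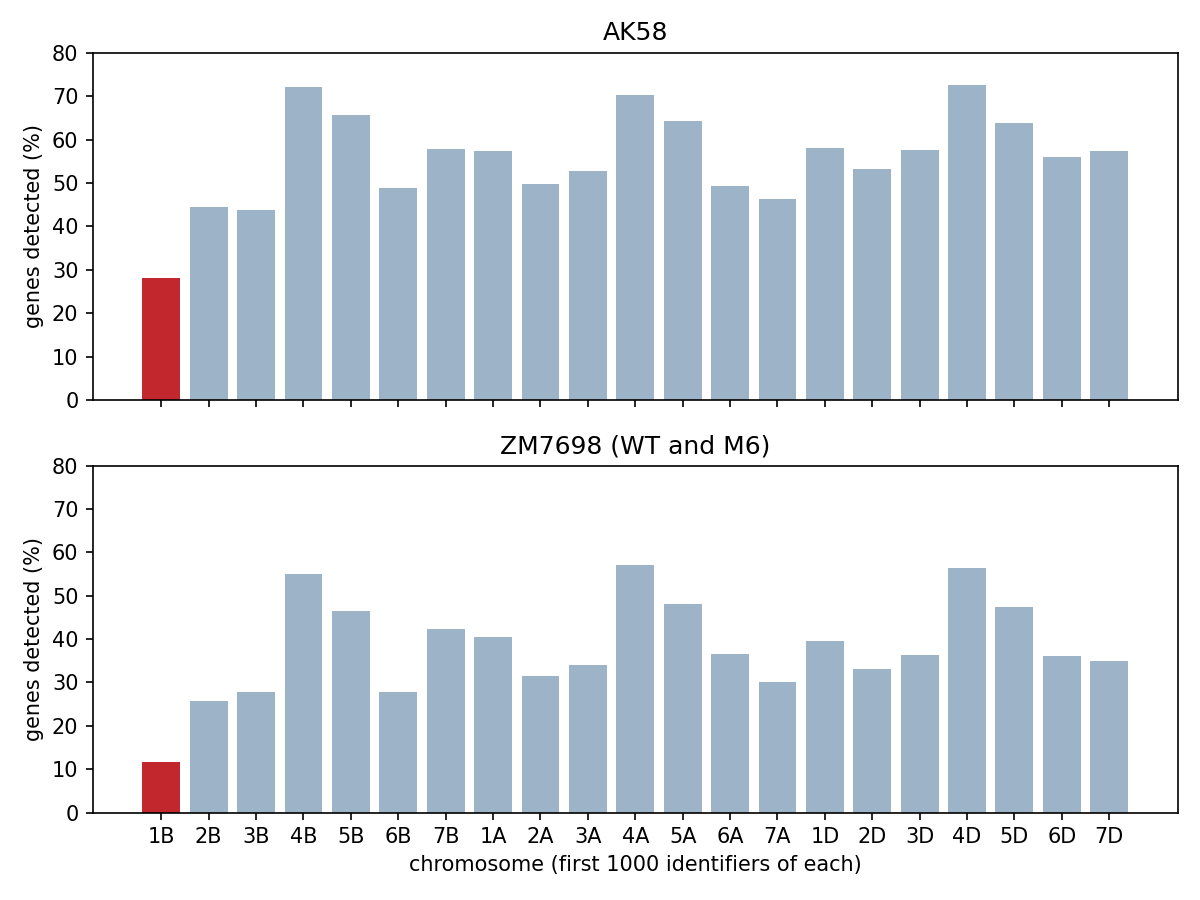
Share of the first 1000 identifiers of each of the 21 chromosomes that were detected (percent of genes), in AK58 (top) and ZM7698 (bottom). Bars start at 0, and 1B is in red. The bar of 1B stands at 28.1% in AK58 and 11.6% in ZM7698, and the lowest of the other 20 at 43.9% and 25.7%.

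Along the chromosome the low share formed an unbroken run. In bins 1 to 15 the share detected on 1B was below that of both 1A and 1D in 15 of 15 bins, in AK58 and in ZM7698 alike. In the chromosome groups 2 to 7, a B bin was below both of its partners in 43.7% of 286 bins in AK58 and in 41.6% in ZM7698. In bins 16 to 43 of AK58, 1B was below both partners in 7 bins, between them in 9 and above both in 12. In ZM7698 the counts were 9, 9 and 10, so that from bin 16 onward 1B was mixed with its partners. Over bins 1 to 15 the median difference between 1B and the mean of 1A and 1D was -28 points in AK58 and -29.5 points in ZM7698. Over bins 16 to 43 it was 4 points in AK58 and 0.75 points in ZM7698. In the 6 AK58 libraries without root, 1B was again below both partners in 15 of 15 of the first bins, with a median difference of -25 points, and in bins 16 to 43 it was below both in 8, between them in 9 and above both in 11, with a median of 2 points.

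The share detected on 1B varied within the run. The lowest bin in AK58 was bin 3, with 14% detected on 1B, against 51% on 1A and 53% on 1D. In ZM7698 bins 1 and 3 had 5% detected each on 1B, where 1A had 33% in each and 1D had 29% and 33%. The median over bins 1 to 10 was 29.5% in AK58 and 11.5% in ZM7698. Of the 995 other full bins of the genome, 2 were at or below that median in AK58, where their own median was 66%, and 4 in ZM7698, where it was 48%. Split once more by the likelihood rule described below, the low stretch of AK58 had 18.3% detected in its first 306 identifiers and 32.8% in the remainder, or 17.3% and 30.7% without both root libraries. The partners were also lower in the outer bins, with 38% on 1A and 43% on 1D in bin 1 of AK58, where 1B had 24%, and with 71% and 80% in bin 15, where 1B had 65%. The gap between 1B and their mean in AK58 was thus -16.5 points in bin 1 and -10.5 in bin 15, and it was widest in bin 9, at -41 points. In ZM7698 the gap was -26 points in bin 1 and -37.5 in bin 15, and it was widest in bin 13, at -48 points.

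**Figure D3:**
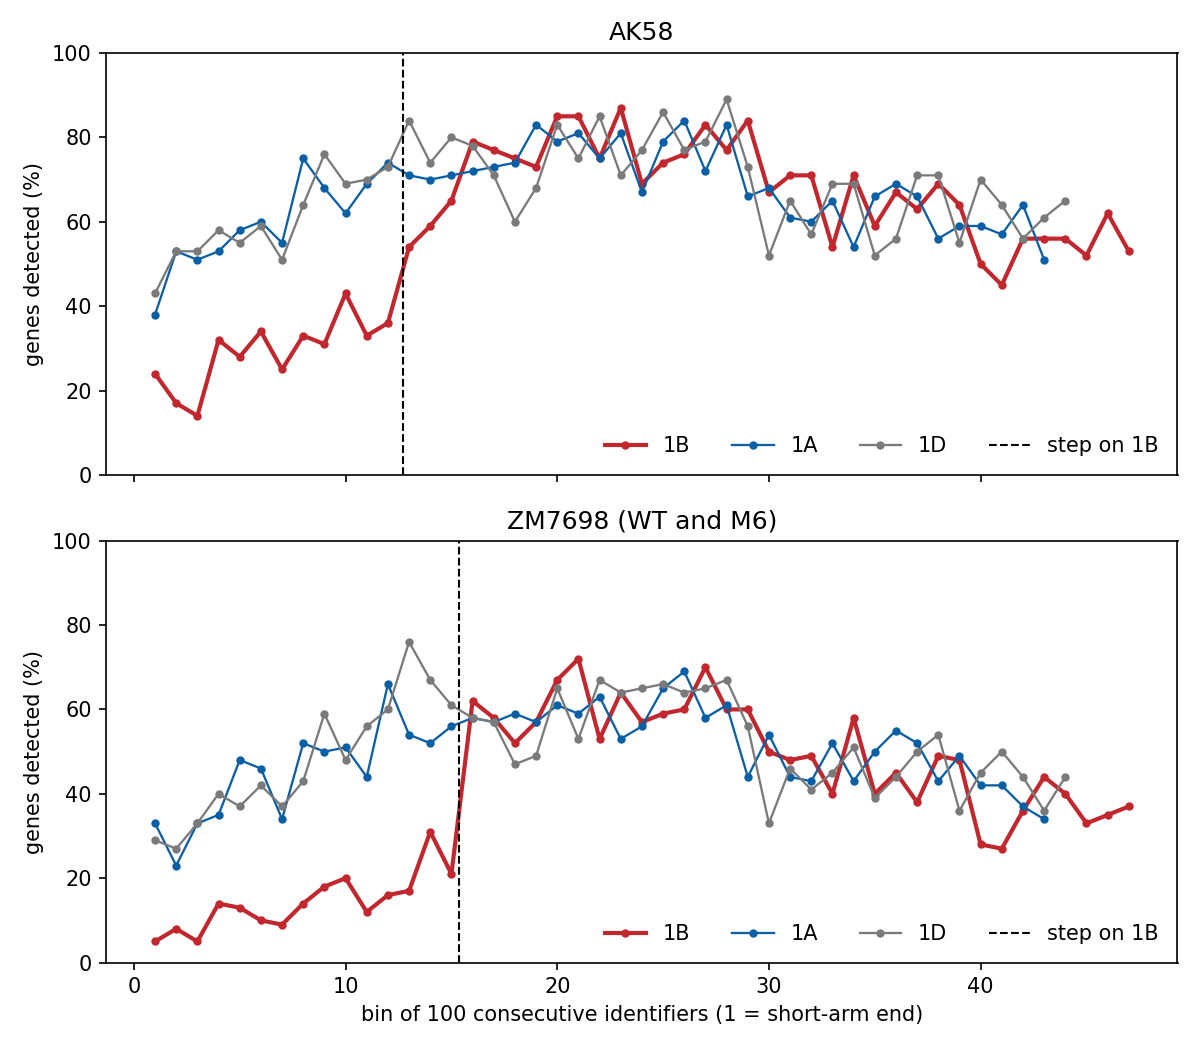
Share of genes detected (percent) in each full bin of 100 consecutive identifiers along 1B (red), 1A (blue) and 1D (grey), for AK58 (top) and ZM7698 (bottom). The dashed line marks the step on 1B, after identifier 1222 in AK58 and 1485 in ZM7698. Bins 1 to 15 of 1B lie below both partners, and from bin 16 the 3 chromosomes interleave.

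The position of the change was found as the single split that best separates detected from undetected genes. In AK58 it fell after 1222 identifiers, between TraesCS1B02G122900 and TraesCS1B02G123000. The share detected was 29.1% before it and 67.8% after it, a step of 38.7 points. In ZM7698 it fell after 1485 identifiers, between TraesCS1B02G150100 and TraesCS1B02G150200, with 13.8% before and 49.9% after it, a step of 36.1 points. The gain in log-likelihood on 1B was 278 in AK58, with 124 on 7B as the next largest of the 21 chromosomes. It was 308 in ZM7698, with 153 on 4A as the next. The steps of the other 20 chromosomes measured 9.13 to 29.4 points in either direction in AK58 and 9.79 to 35.0 points in ZM7698. On 1A the same search put the step after 645 identifiers in AK58 and 410 in ZM7698, and on 1D after 739 in each. These steps were smaller, 17.9 points on 1A and 17.3 points on 1D in AK58, and 20.9 and 19.1 points in ZM7698.

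Without either root library, or without both, the AK58 split fell after 1254 identifiers. Without both, the share detected was 27.8% before it and 63.2% after it, a step of 35.4 points with a gain of 237, where the largest gain of another chromosome was 147. Single libraries placed the 1B step in the same stretch. In AK58 it fell after 1212 to 1254 identifiers, and in ZM7698 after 1485 in 2 libraries and after 1494 in the other 6. Searched on the mean log2 level in place of detection, a search added after the data were seen, the split fell after 1254 identifiers in AK58 and 1494 in ZM7698. The mean log2(value + 1) was 1.76 before and 4.78 after it in AK58, and 0.39 before and 1.52 after it in ZM7698. That split accounted for 12.2% of the variance among 1B genes in AK58 and 9.56% in ZM7698, and the next chromosome, 4A, reached 7.29% and 4.20%. The split on detection moved with the threshold: in ZM7698 it fell after 1254 identifiers at 0.5 TPM and after 1494 at 5 TPM, and in AK58 after 1254 at 50 normalised reads.

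The stretch between those splits, identifiers 1223 to 1494, differed from both sides of it. In AK58, 61.0% of its 272 genes were detected on 1B, against 68.75% on 1A and 79.0% on 1D. The AK58 shares without root were 57.7% on 1B, against 66.9% on 1A and 75.7% on 1D. In ZM7698, 23.2% were detected on 1B, against 53.3% on 1A and 67.6% on 1D. Its summed level was low in both cultivars. In AK58 it gave 0.103% of the library total on 1B, against 0.370% on 1A and 0.398% on 1D. In ZM7698 it gave 0.101% on 1B, against 0.249% on 1A and 0.224% on 1D. The genes of this stretch were thus often above the AK58 threshold at low levels.

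The 3 detected genes nearest to each split, on either side, show how the levels changed there. Before the AK58 split, TraesCS1B02G122100, TraesCS1B02G122300 and TraesCS1B02G122400 averaged 31.0, 68.1 and 23.0 normalised reads over the 8 AK58 libraries, and 0.696, 0.333 and 0.125 TPM in ZM7698. After it, TraesCS1B02G123000, TraesCS1B02G123100 and TraesCS1B02G123200 averaged 54.1, 178 and 338 normalised reads, and 0.483, 0.906 and 1.97 TPM. Of these 6, TraesCS1B02G123200 alone was at 1 TPM or more in all 8 ZM7698 libraries, between 1.84 and 2.15 TPM. Before the ZM7698 split, TraesCS1B02G148500 stood out with 33.6 to 40.8 TPM in ZM7698, while TraesCS1B02G147700 and TraesCS1B02G148400 averaged 1.37 and 1.80 TPM. After it, TraesCS1B02G150200, TraesCS1B02G150500 and TraesCS1B02G150900 averaged 2.07, 0.938 and 1.63 TPM. So the first detected genes past a split were not highly expressed ones.

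The summed level fell further short than the number of detected genes. In AK58 the first 1000 genes of 1B gave 0.0899% to 0.138% of a library's total over gene identifiers, against 0.786% to 0.938% for 1A and 0.683% to 1.29% for 1D. In ZM7698 they gave 0.0876% to 0.177%, against 0.872% to 0.977% for 1A and 0.837% to 1.54% for 1D. The ratio of 1B to the mean of 1A and 1D was 0.0961 to 0.146 over the AK58 libraries and 0.103 to 0.141 over the ZM7698 libraries, with no overlap between 1B and its partners. The lowest AK58 ratio was that of the second root library and the highest that of the first apex library. Over bins 1 to 15 the median ratio was 0.116 in AK58 and 0.114 in ZM7698, and over bins 16 to 43 it was 0.985 and 1.01. Bin 14 of ZM7698 had the highest ratio in the low run, 1.19.

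**Figure D4:**
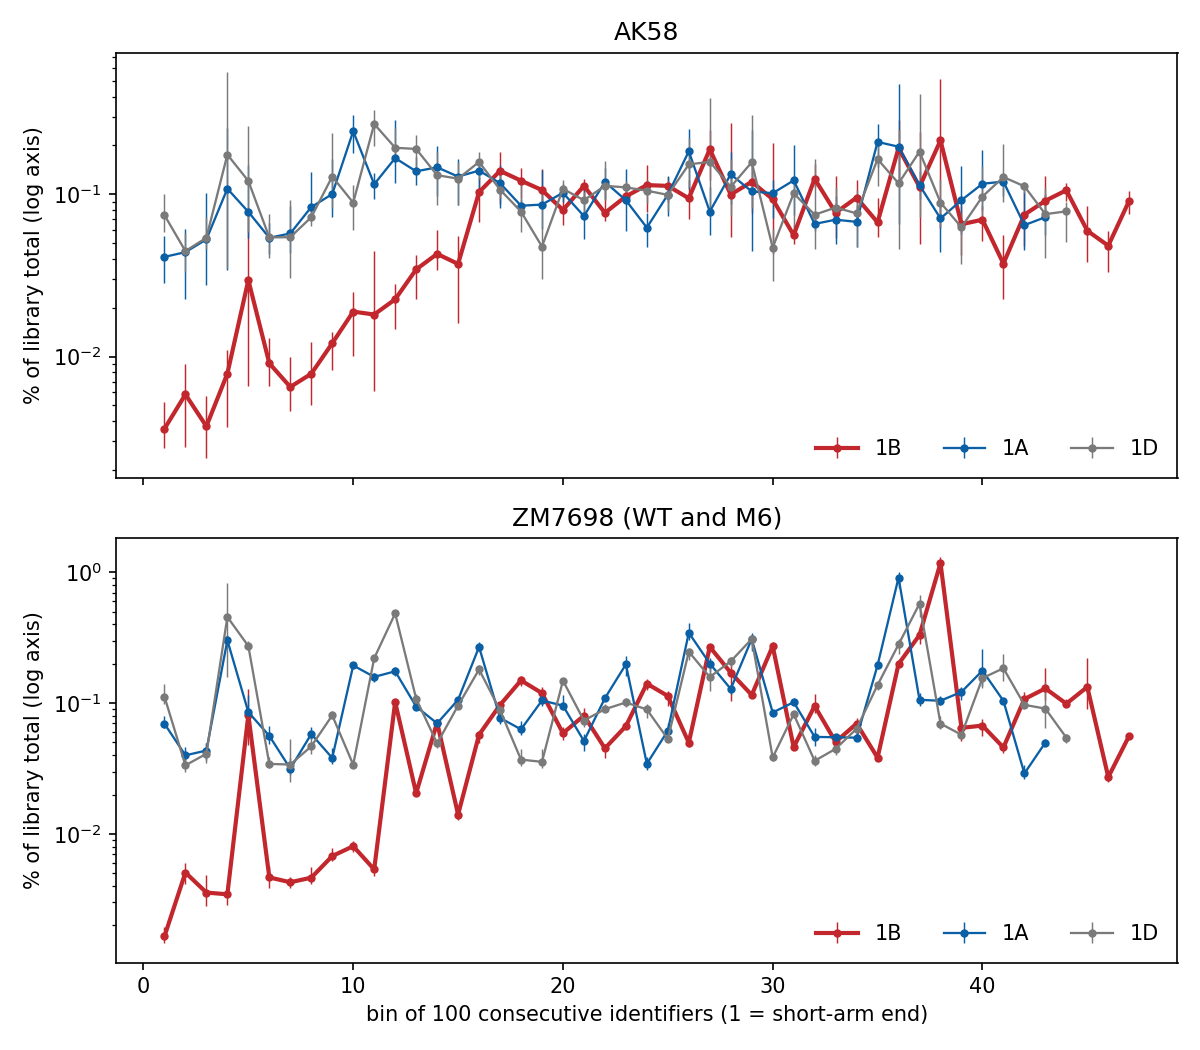
Summed value of each full bin as a percentage of the library total over gene identifiers (log axis) along 1B (red), 1A (blue) and 1D (grey), for AK58 (top) and ZM7698 (bottom). Points are means and thin bars run between the lowest and the highest of the 8 libraries of a set. The median ratio of 1B to its partners is 0.116 in AK58 and 0.114 in ZM7698 over bins 1 to 15, and bin 5 of 1B peaks above its neighbours in both.

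Even the genes that were detected in the low stretch had lower values. Of the first 1485 genes of 1B, 517 were detected in AK58, 665 were listed at 0 in all 8 libraries and 303 lay between. The median mean level of the detected ones was 60.2 normalised reads on 1B, against 282 on 1A and 304 on 1D. Without both root libraries 486 were detected on 1B, with a median of 63.1 normalised reads, against 293 on 1A and 323 on 1D. In ZM7698, 205 were detected, 690 were listed at 0 and 590 lay between, and the median was 2.25 TPM on 1B, against 4.87 TPM on 1A and 4.48 TPM on 1D. In the rest of 1B the median was 272 normalised reads in AK58 and 4.82 TPM in ZM7698, close to the values of 1A and 1D there, 289 and 293 normalised reads and 4.99 and 5.04 TPM.

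The cultivars were set side by side gene by gene, each by its own threshold. Of the first 1485 genes of 1B, 195 were detected in both cultivars, 322 in AK58 alone, 10 in ZM7698 alone and 958 in neither. Of the genes detected in ZM7698, 95.1% were also detected in AK58, and of those detected in AK58, 37.7% were also detected in ZM7698. The share of AK58 genes also detected in ZM7698 was 71.5% on 1A, 72.2% on 1D and 71.6% in the rest of 1B. Without both AK58 root libraries it was 39.7% on 1B, against 76.2% on 1A and 77.4% on 1D. With the 4 AK58 apex and bud libraries alone, a choice added after the data were seen, the share on 1B was 42.3%, against 80.2% on 1A and 80.9% on 1D. The sets differ in unit, threshold and tissues as well as in cultivar, and these cannot be told apart. Genes listed at 0 in all 16 libraries numbered 583 in this stretch of 1B, or 39.3%, against 18.9% on 1A and 17.0% on 1D, and 15.2% in the rest of 1B.

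Runs of undetected genes were measured as well. A low share detected lengthens such runs by itself, and the length expected at that share was not worked out. The longest run without a detected gene on 1B was 41 identifiers in AK58, TraesCS1B02G024600 to TraesCS1B02G028800, where the longest runs of the other 20 chromosomes measured 12 to 35 with a median of 19. In ZM7698 it was 54 identifiers, TraesCS1B02G002100 to TraesCS1B02G007700, where those of the other chromosomes measured 19 to 64 with a median of 33.5. So the AK58 run was longer than that of any other chromosome and the ZM7698 run was not. Without both root libraries the AK58 run on 1B was again 41, and the longest of another chromosome was 40.

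Much of the summed level that remained at this end came from few genes in ZM7698. The same share was not worked out for 1A or 1D, so it is not shown to be particular to 1B. TraesCS1B02G042200 and TraesCS1B02G049100, at positions 426 and 491, had the highest mean levels in both cultivars. Together they gave 45.4% to 68.8% of the summed TPM of the first 1000 genes, with a median of 55.7%. In AK58 they gave 0.0196% and 0.0481% of the summed reads in leaf, 0.0346% and 8.69% in root and 11.996% and 15.9% in bud, against 34.1% and 53.7% in apex. The root libraries differed most from each other, and both apex libraries were above the other 6. Both genes lie in bin 5, which had the highest mean summed level of the first 10 bins of 1B in both cultivars. Over the AK58 libraries it ranged from 0.00653% to 0.0822% of the library total. Bin 10 was at 0.0101% or more in every AK58 library, so bin 5 was not the highest in each of them.

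TraesCS1B02G042200 was listed at 0 in both leaf libraries, at 0 and 2761 normalised reads in root and at 1765 and 5488 in bud, against 12617 and 27775 in apex. In ZM7698 it had 291 and 368 TPM in M6 apex against 203 and 805 in WT apex, and 898 and 331 TPM in M6 bud against 92.4 and 206 in WT bud. The apex libraries of AK58 were above all others, while M6 and WT overlapped in apex and not in bud, where the difference was not called, with a log2 change of 1.98 ± 0.76 and an adjusted p of 0.413 in limma. Against the floor of 3 reads per library, the mean leaf level was at least 6656-fold lower than the apex mean, with an adjusted p of 0.0175 in limma. The call was lost without either leaf library or either apex library, with adjusted p up to 0.1002.

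TraesCS1B02G049100 had 10.98 and 23.1 normalised reads in leaf, 14.2 and 2142 in root and 4768 and 3412 in bud, against 7561 and 12186 in apex. It was lower in leaf than in apex, by a log2 change of -9.14 ± 2.07 (SE) with an adjusted p of 0.0160 in limma, a call likewise lost without either leaf or either apex library, with adjusted p up to 0.104. In ZM7698 it was even, between 288 and 349 TPM in all 8 libraries. The second root library held these genes at 2761 and 2142 normalised reads and the first at 0 and 14.2, a gap that bears on any root value given here.

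TraesCS1B02G017700, at position 183, was listed at 0 in both leaf libraries and had 0 and 2.82 normalised reads in root, and 981 and 1042 in bud, against 304 and 418 in apex. Its leaf mean was at least 119-fold lower than that of apex, with an adjusted p of 0.000659 in limma, and no library left out ended that call. In ZM7698 it had 18.04 and 14.7 TPM in M6 apex against 16.1 and 14.1 in WT apex, and 27.5 and 25.0 TPM in M6 bud against 19.3 and 17.6 in WT bud. M6 and WT overlapped in apex and did not in bud, where the difference was not called.

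TraesCS1B02G090500 and TraesCS1B02G093600, at positions 901 and 931, were the leading genes near the inner side of this end in AK58. TraesCS1B02G090500 had 2772 and 2716 normalised reads in leaf, 2859 and 1576 in root and 2665 and 2500.2 in bud, against 1031 and 516 in apex. It was higher than in apex in all 3 tissues, with log2 changes of 1.91 ± 0.41 in leaf, 1.54 ± 0.41 in root and 1.82 ± 0.41 in bud, and adjusted p of 0.0136, 0.0297 and 0.0292 in limma. Each of these calls was lost without leaf replicate 1, leaf replicate 2 or apex replicate 2, the root call also without root replicate 1 or either bud library, and the bud call also without either bud library, with adjusted p up to 0.160. TraesCS1B02G093600 had 2815 and 2802 normalised reads in leaf, 438 and 237 in root and 2547 and 2299.7 in bud, against 1389 and 973 in apex. In ZM7698 these genes had means of 9.01 and 11.1 TPM.

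In ZM7698 the leading genes after the first pair were TraesCS1B02G048900, with 32.3 to 40.4 TPM over the 8 libraries, TraesCS1B02G044000, with 20.4 to 28.3 TPM, and TraesCS1B02G017700. None of these had a library far from the others in ZM7698. In AK58, TraesCS1B02G048900 was listed at 0 in both leaf libraries and had 0 and 242 normalised reads in root and 380 and 369 in bud, against 717 and 2127 in apex, while TraesCS1B02G044000 was between 101 and 428 in all 8. Of the 8 genes of 1B with the highest means at this end in either cultivar, 5 lie between positions 426 and 491.

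The M6 mutant and its wild type were compared across all genes with limma on log2(TPM + 1), and genes counted as called had to pass an adjusted p of 0.05 with a log2 change of 1 or more in size. In apex, 2 of the 1817 genes of 1B tested were called higher in M6 and none lower, where 0.0786% of all genes tested were called higher and 0.0550% lower. In bud, 1 was called higher and none lower, where the shares of all genes were 0.0806% and 0.0668%. For the lower direction no gene of 1B was called in either tissue. The bud and apex differences were also compared with each other. No gene of 1B was called for that interaction in limma, and no adjusted p was below 0.413, while 150 of 1817 genes, or 8.26%, were below 0.05 without adjustment, where the share of all genes tested was 8.07%. The counts were small and moved with single libraries. In apex the count was 1 without WT apex replicate 1, 0 without WT apex replicate 2, 0 without M6 apex replicate 1 and 1 without M6 apex replicate 2. In bud it was 0 without either WT bud library and 66 without M6 bud replicate 2.

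The gene called in both tissues lies in the low stretch. TraesCS1B02G045700, at position 459, had 6.52 and 5.26 TPM in M6 apex, against 0.0381 and 0.0628 TPM in WT apex. It had 4.78 and 6.15 TPM in M6 bud, against 0.0673 and 0.0625 TPM in WT bud. All 4 M6 libraries were above all 4 WT libraries, and the WT values lay near 0. The gene thus passed the filter of 1 TPM only through the M6 libraries, where it is high. The log2(TPM + 1) change was 2.71 ± 0.16 in apex and 2.59 ± 0.16 in bud, with adjusted p of 0.00331 and 0.00411 in limma. The apex call was lost without WT apex replicate 2, with an adjusted p of 0.0502, and without M6 apex replicate 1, with 0.0699. The bud call was lost without WT bud replicate 1, with 0.0722, and without WT bud replicate 2, with 0.0643. With a filter at 5 TPM both calls were lost, with adjusted p of 0.143 in apex and 0.101 in bud, and the bud call also with the 2 groups contrasted alone, with 0.0953.

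Few of the genes beside it could be tested. Of the 20 genes within 10 positions on either side, 3 passed the filter and were not called between M6 and WT, and the other 17 were not tested. Among these 20, 11 were listed at 0 in all 8 ZM7698 libraries, 4 reached 1 TPM in at least 1 library and the highest value was 4.13 TPM. In AK58, which carries no named mutation, TraesCS1B02G045700 had 69.1 and 99.9 normalised reads in leaf, 80.03 and 2433 in root and 2842 and 3383 in bud, against 1305 and 1507 in apex. It was thus among the 5 leading genes of this end in AK58, near 0 in ZM7698 WT and present in M6. Both M6 groups come from the same mutant, and whether the difference belongs to the mutated genes or to other differences between these lines was not tested.

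**Figure D5:**
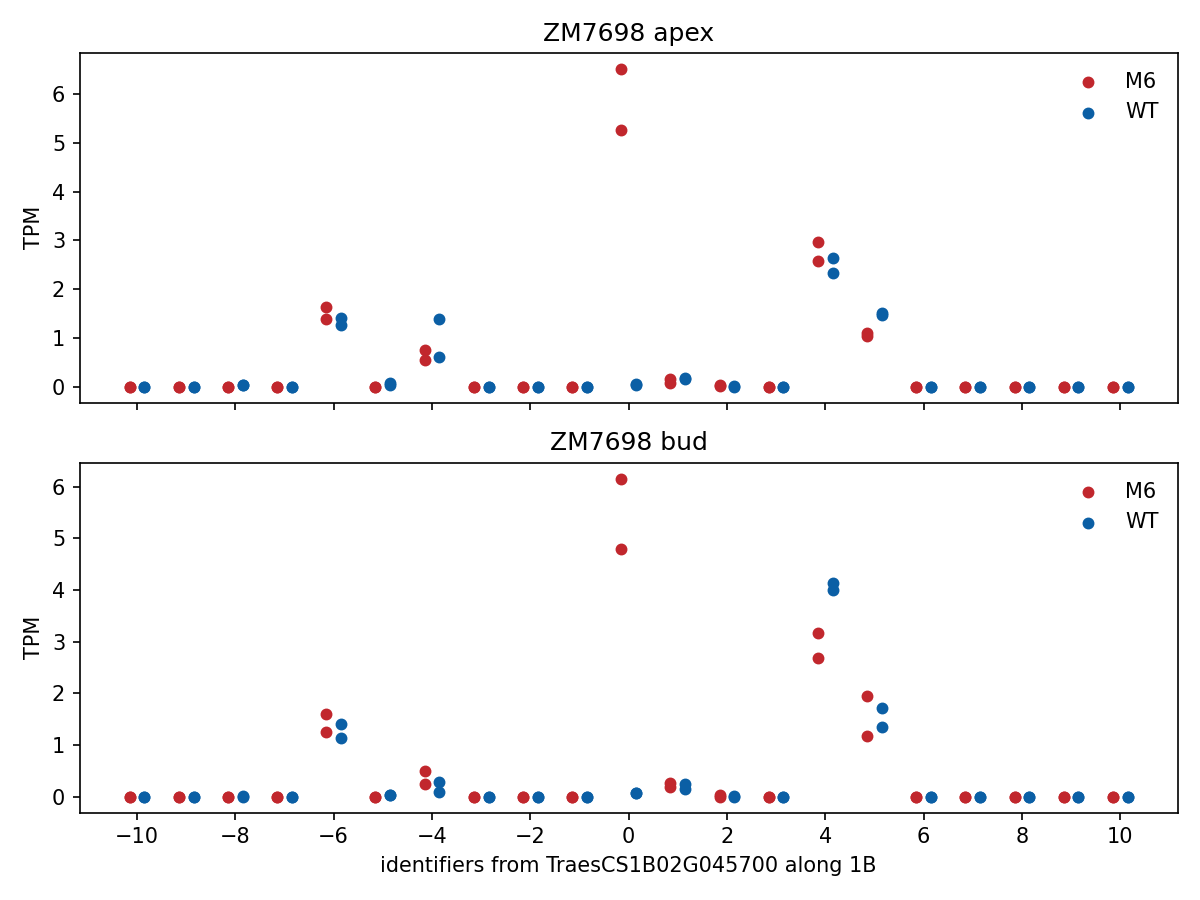
TPM of TraesCS1B02G045700 (position 0) and the 10 identifiers on either side of it along 1B, in ZM7698 apex (top) and bud (bottom). Each point is a library, with M6 in red and WT in blue. At position 0 the M6 libraries stand between 4.78 and 6.52 TPM and the WT libraries at 0.0673 TPM or below, while most neighbours lie at or near 0 in both.

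The second gene called in apex, TraesCS1B02G294300, lies at position 2884, outside the low stretch, and is named here after its values were seen. It had 62.4 and 53.5 TPM in M6 apex, against 10.7 and 9.23 TPM in WT apex, a log2 change of 2.43 ± 0.16 with an adjusted p of 0.00642 in limma. That call was lost without any 1 of the 4 apex libraries, with adjusted p of 0.0510 to 0.125.

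Tissue differences on 1B in AK58 were close in number to those of the genome. Of the 2723 genes of 1B tested, 510 were called higher and 566 lower in leaf than in apex, or 18.7% and 20.8%, where the shares of all genes were 20.3% and 20.1%. In root, 523 were higher, or 19.2%, and 354 lower than in apex, where the shares of all genes were 20.1% and 14.0%. In bud, 209 were higher and 230 lower, or 7.68% and 8.45%, against 9.70% and 8.12% of all genes. The bud split was different in edgeR on the recovered reads, with 174 higher and 119 lower. That fit differs in model and input as well as in scaling, and the cause was not tested. The median log2 change of the 1B genes tested was -0.15 in leaf, 0.01 in root and -0.10 in bud, beside -0.14, -0.01 and -0.07 over all genes.

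Of the first 1000 genes, 281 passed the filter on low values in AK58 and could be tested, and the others could not. Among those tested, 71 were called higher and 47 lower in leaf than in apex, or 25.3% and 16.7%, beside the 20.3% and 20.1% of all genes. In root, 40 were higher and 35 lower, or 14.2% and 12.5%, beside 20.1% and 14.0% of all genes. In bud, 19 were higher and 12 lower, or 6.76% and 4.27%, beside 9.70% and 8.12%. The median log2 change was 0.32 in leaf, -0.05 in root and 0.12 in bud, beside -0.14, -0.01 and -0.07 over all genes.

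The genes with the largest called changes between AK58 tissues all had a group listed at 0. In leaf, TraesCS1B02G367500 had 3354 and 2232 normalised reads, against 0 and 0 in apex, at least 1106-fold higher with an adjusted p of 0.000324 in limma, and the largest decrease was that of TraesCS1B02G042200. In root, TraesCS1B02G469800 had 2984 and 8328, against 0 and 0 in apex, at least 2239-fold higher with an adjusted p of 0.000305. TraesCS1B02G382700 had 0 and 0 in root, against 10519 and 12556 in apex, at least 4555-fold lower with an adjusted p of 0.00191. These bounds use the floor of 3 reads per library. The calls of TraesCS1B02G367500 and TraesCS1B02G382700 held in every fit with a library left out. TraesCS1B02G469800 passed the filter only through its root libraries, so a fit without 1 of them could not test its call. In bud, TraesCS1B02G317500 had 3018 and 3921, against 0 and 0 in apex, at least 1373-fold higher with an adjusted p of 0.00309. TraesCS1B02G442700 had 0 and 0 in bud, against 231 and 154 in apex, at least 83.04-fold lower with an adjusted p of 0.000830 in limma. This gene was listed at 0 in every AK58 library outside apex, so it passed the filter only through the group where it is high. Apart from TraesCS1B02G042200, all genes named for these changes lie between positions 3112 and 4601.

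The counts of AK58 calls moved with single libraries. The leaf count of 1076 was 367 without leaf replicate 1, 616 without leaf replicate 2, 574 without apex replicate 1 and 380 without apex replicate 2. The root count of 877 was 447 without apex replicate 1 and 418 without apex replicate 2. The bud count of 439 was 119 and 116 without apex replicates 1 and 2, 97 and 134 without bud replicates 1 and 2, and 902 and 893 without root replicates 1 and 2. Without both root libraries, 1455 genes of 1B were called in leaf and 888 in bud.

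In ZM7698, buds and apices were compared within each genotype. In M6, no gene of 1B was called higher in bud than in apex and 3 were lower, where 0.0334% and 0.0550% of all genes were called. These were TraesCS1B02G394500, with 5.23 and 7.35 TPM in M6 bud against 55.4 and 39.6 in M6 apex, TraesCS1B02G434200, with 0.0566 and 0.123 against 5.25 and 5.09, and TraesCS1B02G368400, with 0.0224 and 0.216 against 2.59 and 2.49, the last pair named after their values were seen. Their adjusted p were 0.0288, 0.0288 and 0.0489 in limma, and all 3 calls were lost without either WT bud library, either M6 apex library or M6 bud replicate 1, with adjusted p up to 0.290. The M6 count was 5 without either WT apex library, 0 without either WT bud or either M6 apex library, 1 without M6 bud replicate 1 and 88 without M6 bud replicate 2.

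In WT, 22 genes of 1B were called higher in bud and 22 lower, or 1.21% each, where 1.61% and 0.884% of all genes were called. TraesCS1B02G170100 had 50.8 and 83.9 TPM in WT bud, against 6.04 and 1.17 in WT apex, a log2 change of 4.08 ± 0.75 with an adjusted p of 0.0412 in limma. TraesCS1B02G340200 was listed at 0 in both WT bud libraries, against 44.9 and 26.4 TPM in WT apex, with an adjusted p of 0.0479. At the short-arm end 1 gene was called, TraesCS1B02G033200 at position 333, named after its values were seen, with 2.75 and 3.30 TPM in WT bud against 9.70 and 12.3 in WT apex, a log2 change of -1.57 ± 0.23 and an adjusted p of 0.0278. The WT count of 44 was 0 without WT apex replicate 2 or either WT bud library and 21 without either M6 apex library, and with median centring it split into 13 higher and 23 lower. Each of the WT calls named here was lost without WT apex replicate 2 and without either WT bud library. Those of TraesCS1B02G340200 and TraesCS1B02G033200 were also lost without WT apex replicate 1, and that of TraesCS1B02G340200 without either M6 apex library, and adjusted p reached 0.232 over the fits with a library left out.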

How the data were processed

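Messenger RNA was sequenced from stranded libraries in 16 bread wheat samples. Per the submitters' processing notes, Trimmomatic, HISAT2 2.0.5 and StringTie 1.3.3b were used, and the genome build and the program behind the AK58 reads are not given in the sources used here. The values deposited by the authors for ZM7698 are TPM. Those deposited for AK58 are a signal, whole reads divided by 1 factor per library, in which 100% of values were whole within 0.001 reads. This unit was recognised from the values. Reads of near-identical copies can be split between them.

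The members and lists were chosen with earlier results of these data known. Genes were ordered by identifier number, and 12853 noncoding rows were left out of the shares detected and the bins, but not of the fits. Splits needed at least 50 genes on either side. Each set was fitted on its own in limma 3.58.1 (R 4.3.3) with an intensity trend on log2(value + 1). The fits covered 69525 rows in AK58 and 50878 in ZM7698, with Benjamini-Hochberg adjustment. Noncoding rows that passed the filter were among them, and the shares of all genes called are shares of these rows. The filter was the detection rule. Apart from the ends, values for AK58 without root were added after the data were seen. The split search and the fits were tested on simulated data. Named genes were the 5 highest means of the first 1000 identifiers in each set, the 3 detected genes on either side of each split, and, for each contrast, the largest increase and decrease among called genes with replicates that did not overlap and, in the higher group, a mean of 5 TPM (ZM7698) or 50 normalised reads (AK58) or more. As alternatives, edgeR 4.0.16 and DESeq2 1.42.0 were run on the recovered AK58 reads. Over all genes edgeR called 24323 in leaf, 20366 in root and 8632 in bud. The reference gene table matched 0 of 107891 identifiers, so no sequence or gene name was used. Counting error in AK58 and an unknown depth in ZM7698 limit what a value of 0 shows.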

Additional observations from a re-analysis of the deposited data

How the results depend on the processing

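The first end of 1B stayed below 1A and 1D under every alternative tried, and the run of 15 low bins kept within 1.5 times its length. The AK58 difference of -29.6 points, by the rule of 2 libraries, was -25.75 at 50 normalised reads, -23.95 when 4 libraries were needed and -25.9 without both root libraries. The ZM7698 difference of -28.4 was -18.95 at 5 TPM, -25.75 with any value above 0, -30.15 when 1 library was needed, -26.4 when 4 were, -24.8 over the first 500 identifiers, -32.2 over the first 1500 and -27.5 over the first 20%. The last-end difference reversed against the other 6 B chromosomes, to 5.05 in AK58 and 4.33 in ZM7698. The AK58 split moved to 1254 at 50 normalised reads, with any value above 0, when 1 or 4 libraries were needed, and without both root libraries. The ZM7698 split moved to 1254 at 0.5 TPM, 1253 with any value above 0, and 1494 at 5 TPM or when 4 libraries were needed. With each library left out in turn, these differences ranged over -29.45 to -26.1 and -28.5 to -27.55 by the rule of 2 libraries, -24.3 to -23.6 and -26.3 to -26.0 per library at the first end, and -5.79 to -5.19 and -7.21 to -6.98 at the last end, and the splits over 1222 to 1254 and 1485 to 1494, in AK58 and ZM7698.

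Counts of calls on 1B were less stable. With the 2 groups contrasted alone, root had 386, AK58 bud 918, M6 against WT in bud 0 and M6 bud 0, and without both root libraries AK58 bud had 888. M6 against WT in bud had 2 with an added value of 5, 0 with the strict filter of 5 TPM, 5 with median centring, 4 with quantile normalization and 2 without the intensity trend. In apex it had 1 with the strict filter and 5 with median centring or quantile normalization, 4 higher and 1 lower. WT bud against apex had 25 with an added value of 5, 17 without a filter and 71 without a minimum fold. M6 bud against apex had 1 with an added value of 5, 0 without a filter and 1 with the strict filter. With each library left out the counts ranged over 367 to 1486 in leaf, 418 to 1208 in root, 97 to 902 in AK58 bud, 0 to 3 for M6 in apex, 0 to 66 for M6 in bud, 0 to 52 for WT bud and 0 to 88 for M6 bud. Where 1 library is left in a group, it is assumed to vary like the other groups. Of the values of named genes under alternatives, 506 stayed on their side of the threshold, 148 lost their call and 0 reversed. The causes were not tested.

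Deviations of same-numbered libraries correlated at -0.118 to 0.43 in AK58, highest between root and apex, and at -0.308 to 0.164 in ZM7698. Of the 6 pairs of groups in each set, 2 in AK58 and 1 in ZM7698 were above 0.1. The main fits did not use the replicate number. With the replicate number as a block, WT bud against apex and M6 bud against apex had 0 calls each, and the other counts stayed within 1.5 times. In AK58 edgeR called 936, 710 and 293 genes of 1B in leaf, root and bud, and DESeq2 1210, 959 and 584.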

Other observations

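Wheat genes placed on no chromosome had a low share detected too. Of 2691 such identifiers, 31.3% were detected in AK58 and 19.1% in ZM7698.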
